A study of Mus musculus with 2 samples.

Results

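The 9 genes described here write, read or erase DNA methylation. The rule that chose them uses gene symbols and no measured value, although it was written with earlier results of these data known, and all 9 of them have a line among the 32531 gene symbols in the deposited tables. Dnmt1, Dnmt3a and Dnmt3b encode the writers, Tet1, Tet2 and Tet3 the erasers, and Mbd1, Mbd2 and Mbd3 proteins of the reader family. Ribosome-bound RNA was counted by RNA sequencing in 2 libraries from the dentate gyrus of untreated adult mice of the line Lypd1-TRAP OI82, which carries the transgene Lypd1-EGFP/Rpl10a. In translating ribosome affinity purification (TRAP), a ribosomal protein fused to EGFP is made only in cells where the driver, here that of Lypd1, is active, and antibodies to EGFP pull down the ribosomes of those cells with their messages. Both libraries are such pull-downs and form 1 group, so there is no second condition and no test between conditions, and no p-value is given. Input RNA and untagged controls were not analysed here, so no value is an enrichment. Whether the replicates are separate animals or pools is not stated in the labels, so their spread may be technical. In such bulk RNA, fewer cells of a type and less RNA per cell cannot be told apart.

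DNA methylation in mammals sits mainly on cytosines followed by guanine (CpG), and in neurons also on other cytosines. DNMT1 copies the marks onto the new strand when DNA is replicated, while DNMT3A and DNMT3B add marks to unmodified sites, and DNMT3A is the main such enzyme of postmitotic neurons. The TET enzymes oxidise methylcytosine to hydroxymethylcytosine, which is abundant in neurons, and further to bases that repair enzymes can remove. MBD1 and MBD2 bind methylated CpG and recruit repressors, whereas MBD3 of mammals binds methylated DNA poorly and acts as a subunit of the NuRD complex of chromatin remodelling and histone deacetylation.

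The promoters of these genes differ widely in CpG content, the sequence that their own products act on. The RefSeq table of promoters (GRCm38.p6, windows of 300 bases of which 50 follow the start) held 11 windows for 7 of the 9 genes. The median over all 32851 windows was 7 CpG. Tet2 had 57 CpG in its window, more than 99.8% of all windows, against 22 for Tet3 and 17 for Tet1. These are not windows of like starts. The Tet3 and Tet1 windows end at 83441928 and 62887574, well inside genes whose 5′ ends are at 83459084 and 62908996. The Tet2 window ends at 133544640, much nearer its gene's 5′ end at 133545139. The 3 Dnmt3a windows had 46, 47 and 18 CpG, that of Dnmt3b had 30, and that of Mbd3 had 22. The 3 Dnmt1 windows ranged from 2 to 33. The 250 bases before the start are given for Tet2 and Tet3, which had nearly equal levels in both libraries, and for Dnmt3a (the first window) and Dnmt3b, the writers that act on unmodified sites and that differed widely in level. None of these 4 stretches holds a base of an annotated exon of its own gene. They read 5′ to 3′ on the gene's strand, with each CpG in capitals. They lie at chr3:133544391-133544640 (minus strand, Tet2), chr6:83441679-83441928 (minus strand, Tet3), chr12:3806730-3806979 (plus strand, Dnmt3a) and chr2:153649199-153649448 (plus strand, Dnmt3b).
Tet2: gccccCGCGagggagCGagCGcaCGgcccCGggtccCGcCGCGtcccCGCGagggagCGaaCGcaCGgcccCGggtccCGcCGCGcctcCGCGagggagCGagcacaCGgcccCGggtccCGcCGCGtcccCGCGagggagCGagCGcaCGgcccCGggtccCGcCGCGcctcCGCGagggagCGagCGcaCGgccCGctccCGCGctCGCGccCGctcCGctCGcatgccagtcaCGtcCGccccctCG
Tet3: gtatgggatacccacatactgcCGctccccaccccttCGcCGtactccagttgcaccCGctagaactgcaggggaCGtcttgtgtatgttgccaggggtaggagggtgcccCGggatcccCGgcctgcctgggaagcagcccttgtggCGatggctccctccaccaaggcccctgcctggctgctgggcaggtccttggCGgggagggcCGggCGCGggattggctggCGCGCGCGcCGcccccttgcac
Dnmt3a: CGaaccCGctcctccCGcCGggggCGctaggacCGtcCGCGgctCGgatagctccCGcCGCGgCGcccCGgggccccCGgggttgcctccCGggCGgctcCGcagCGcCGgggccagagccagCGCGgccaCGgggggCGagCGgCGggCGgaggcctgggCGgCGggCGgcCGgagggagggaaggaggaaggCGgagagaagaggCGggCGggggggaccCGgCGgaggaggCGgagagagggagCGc
Dnmt3b: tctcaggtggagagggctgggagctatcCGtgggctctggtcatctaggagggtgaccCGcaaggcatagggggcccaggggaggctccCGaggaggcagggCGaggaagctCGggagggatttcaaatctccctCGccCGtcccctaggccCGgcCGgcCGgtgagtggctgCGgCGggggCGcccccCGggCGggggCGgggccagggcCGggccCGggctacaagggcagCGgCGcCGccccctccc

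The Tet2 stretch holds 51 CpG and the Tet3 stretch, from a start inside the gene, 17. A relation of CpG content to level was not tested. The Dnmt3a stretch holds 38 and the Dnmt3b stretch 21. The cAMP response element TGACGTCA, searched on both strands of the full windows, was in none of the 11 and in 1.79% of all windows. Its core TGACG was in the Tet2 window only, and in 20.8% of all windows. The E-box CACGTG was in 1 Dnmt3a window, and in 7.15% of all. Such matches are letters in a window and say nothing of binding. No methylation was measured here.

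Each level is a count divided by the library's counts on genes, times 1000000 (CPM), and genes are compared with each other only as CPM per kilobase of annotated exon, since longer transcripts give more reads. The totals on gene lines were 31309643 counts in replicate 1 and 32711412 in replicate 2. Values are the mean ± SD over the 2 libraries. The libraries differed by far more than counting noise (chi-square 67.8 times its degrees of freedom), so they are separate libraries. The 6 markers of dentate granule cells were high in both and summed to 3506 CPM in each library, led in read count by Prox1 (1100 and 1193 CPM). Single markers differed in opposite directions, with Dsp at 252.2 and 329.2 CPM and Calb1 at 366.2 and 280.4 CPM. Pan-neuronal markers summed to 14377 and 14528 CPM, most of it from Snap25 (12303 and 12586 CPM). Rbfox3 (681.2 and 555.0 CPM) and Syt1 (662.8 and 535.4 CPM) were lower in replicate 2, and Map2 (730.1 and 851.5 CPM) was higher. Microglial markers summed to 1.88 and 1.22 CPM, led by Csf1r, with C1qa and C1qb at 0 counts.

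All 9 genes were detected, taken as 1 CPM or more in each library. Over all symbols in the tables, 38.1% passed this threshold. Per kilobase, 5 of the 9 lay above the median of 5.19 CPM per kilobase of the 11466 detected genes with an annotated length. The median of the 9 was 6.31 CPM per kilobase. Their levels spread from Dnmt3b, at percentile 1.85 of the detected genes, to Mbd2, at percentile 85.5.

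**Figure D1:**
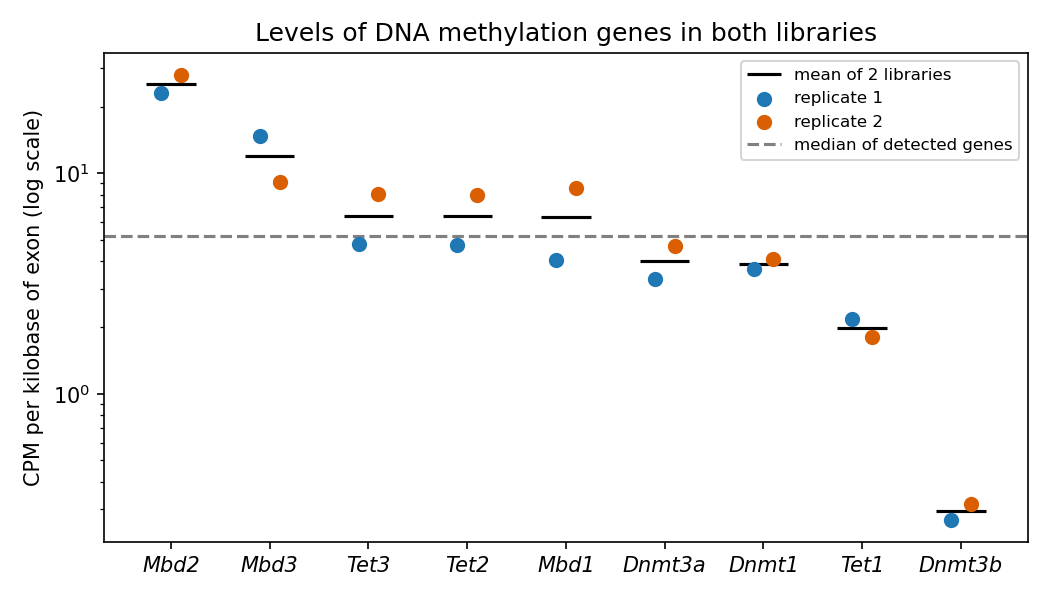
Level of each gene in CPM per kilobase of exon (log axis), with a point for each library, a bar for the mean of both and a dashed line for the median of all detected genes. Mbd2 is highest at 25.4, Tet3, Tet2 and Mbd1 lie close together at 6.39, 6.37 and 6.31, and Dnmt3b is lowest at 0.293.

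Among the writers, Dnmt1 and Dnmt3a were present and Dnmt3b was close to the detection threshold. Dnmt3a, on chromosome 12 (3806007 to 3914443, plus strand, GRCm38), had 1723 counts in replicate 1 and 2541 in replicate 2, or 55.0 and 77.7 CPM. Its mean was 66.4 ± 16.0 CPM and 3.99 ± 0.962 CPM per kilobase (SD, n = 2). Replicate 2 was the higher library.

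Dnmt1, the maintenance enzyme, lies on chromosome 9 (20907209 to 20959888, minus strand) and had 847 and 984 counts. These are 27.1 and 30.1 CPM, and 3.87 ± 0.290 CPM per kilobase. On this scale Dnmt1 was above Dnmt3a in replicate 1 and below it in replicate 2, so their order was not fixed by these libraries.

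Dnmt3b, on chromosome 2 (153649450 to 153687730, plus strand), had 43 and 53 counts. The exact 95% interval of its CPM, which covers counting error only, was 0.994 to 1.85 around 1.37 in replicate 1 and 1.21 to 2.12 around 1.62 in replicate 2. At 0.293 ± 0.0342 CPM per kilobase it was the lowest of the 9 genes in both libraries. Dnmt3a stood at 12.3 times its level per kilobase in replicate 1 and 14.7 times in replicate 2. The lower of these is larger than any shift between the libraries seen among the 9 genes.

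Within the summed level of the 3 writers, Dnmt1 took 50.6% in replicate 1 and 45.0% in replicate 2. Dnmt3a took 45.7% and 51.5%, and Dnmt3b 3.71% and 3.50%. The share of Dnmt3a depends strongly on the length used. Its annotated exons cover 16.6 kb, but its longest coding sequence is 2.72 kb. Per kilobase of coding sequence Dnmt3a was at 24.4 CPM against 5.88 for Dnmt1, and its share of the writers was 78.8%. Dnmt3b was the lowest writer under every length tried (exons, longest transcript, coding sequence, or none).

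**Figure D2:**
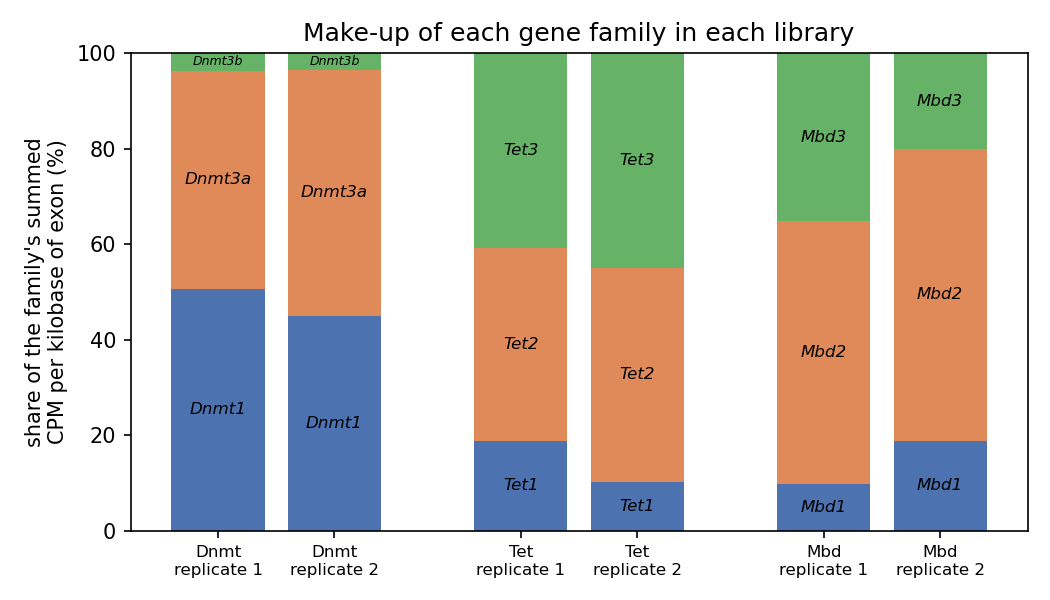
Share of each gene in the summed CPM per kilobase of exon of its family (percent), with 1 bar for each family and library. Dnmt3b takes 3.71% and 3.50% of the writers, the Tet2 and Tet3 shares differ by under 1 percentage point in each library, and Mbd2 is the largest share of its family in both.

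Of the erasers, Tet2 and Tet3 were counted at nearly equal levels and Tet1 at a lower one. Tet3, on chromosome 6 (83362373 to 83459084, minus strand), had 2495 and 4375 counts, or 79.7 and 133.7 CPM, and a mean of 6.39 ± 2.29 CPM per kilobase. Tet2, on chromosome 3 (133463679 to 133545139, minus strand), had 2504 and 4410 counts, or 80.0 and 134.8 CPM, and 6.37 ± 2.30 CPM per kilobase. The ratio of Tet3 to Tet2 per kilobase was 1.007 in replicate 1 and 1.002 in replicate 2. Both genes were higher in replicate 2 and by about the same factor.

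Tet1, on chromosome 10 (62804570 to 62908996, minus strand), had 1056 and 914 counts. It stood at 33.7 and 27.9 CPM, and 1.99 ± 0.265 CPM per kilobase, below both relatives in each library. TET1 carries a DNA-binding CXXC domain, as one form of TET3 does, while TET2 lacks it and can be recruited by the CXXC4 protein. Tet3 was 2.19 times Tet1 per kilobase in replicate 1 and 4.43 times in replicate 2. Tet1 accordingly made up 18.7% of the summed Tet level in replicate 1 and 10.1% in replicate 2. Counts per symbol do not separate transcript forms, so the forms of Tet3 or Dnmt3a with and without their N-terminal parts cannot be told apart.

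In the reader family Mbd2 was the highest gene and also the highest of all 9. Mbd2, on chromosome 18 (70568189 to 70626131, plus strand), had 2312 and 2922 counts, or 73.8 and 89.3 CPM, and a mean of 25.4 ± 3.41 CPM per kilobase. Mbd3, on chromosome 10 (80392539 to 80399550, minus strand), had 916 and 595 counts, or 29.3 and 18.2 CPM, and 11.9 ± 3.94 CPM per kilobase. Mbd3 was higher in replicate 1, whereas Mbd2 was higher in replicate 2. MBD2 and MBD3 occupy the same position in alternative forms of the NuRD complex, and the ratio of their messages per kilobase was 1.56 in replicate 1 and 3.04 in replicate 2.

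Mbd1, on chromosome 18 (74267605 to 74282732, plus strand), had 850 and 1878 counts. Its CPM was 27.1 and 57.4, with a mean of 6.31 ± 3.19 CPM per kilobase. Of the 9 genes it had the largest ratio between the libraries. Its share of the summed level of the 3 readers was 9.70% and 18.8%, that of Mbd2 was 55.0% and 61.1%, and that of Mbd3 was 35.3% and 20.1%.

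The order per kilobase of exon was Mbd2, Mbd3, Tet3, Tet2, Mbd1, Dnmt3a, Dnmt1, Tet1 and Dnmt3b. Neighbours from Tet3 down to Dnmt1 overlapped in range between the libraries, so their order does not exceed the spread over both. Compared within each library, Mbd1 was above Dnmt3a in both, and so, barely, was Tet3 above Tet2. Tet2 and Mbd1 changed places between the libraries, as did Dnmt3a and Dnmt1. Mbd2 lay above Mbd3, Mbd3 above Tet3, Dnmt1 above Tet1 and Tet1 above Dnmt3b without overlap. With only 2 libraries this describes these samples. Mbd2 and Mbd3 kept the top places and Dnmt1, Tet1 and Dnmt3b the last 3 with the longest transcript or the coding sequence as the length. Dnmt3a moved from place 6 to place 3 with the coding sequence. Not scaled by length, Tet2 and Tet3 gave the most reads, at 107.4 ± 38.8 and 106.7 ± 38.2 CPM.

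**Figure D3:**
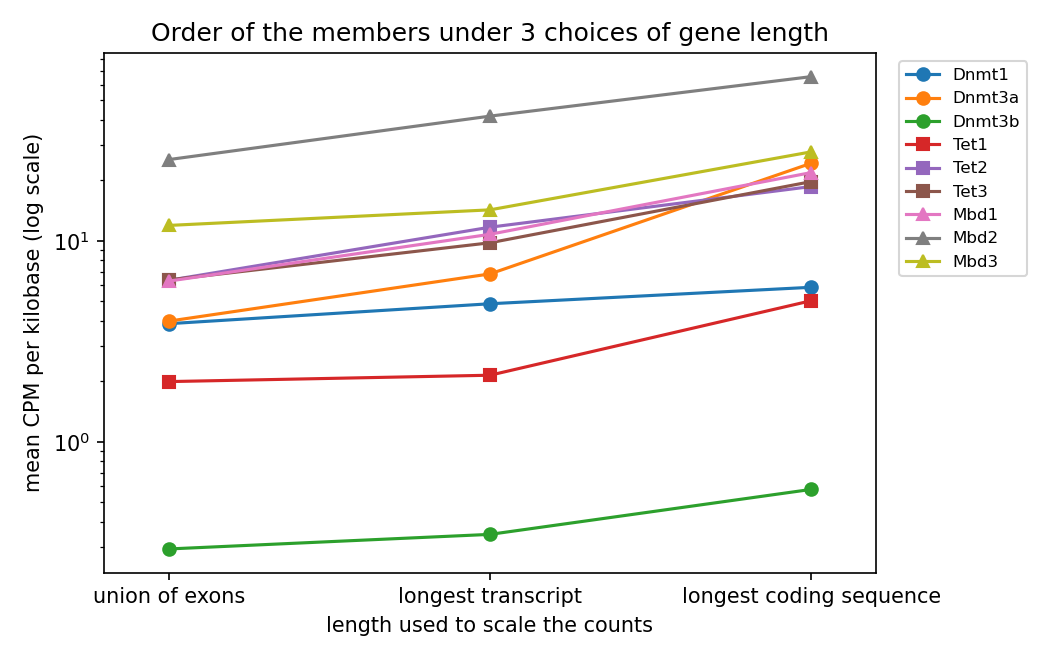
Mean CPM per kilobase of the 9 genes (log axis) with the counts divided by the length of all exons, of the longest transcript or of the longest coding sequence. Mbd2 is highest and Dnmt3b lowest under all 3, while Dnmt3a goes from 3.99 to 24.4 CPM per kilobase.

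Ratios of replicate 2 to replicate 1 were taken with totals scaled by the trimmed mean of M values (TMM) and a prior count of 2. They compare these 2 libraries and not conditions. Of the 9 genes, 4 exceeded replicate 1 by 1.5-fold or more in replicate 2, while 12.6% of the 13089 genes averaging 1 CPM or more did so. In the other direction 1 of the 9 passed 1.5-fold, against 14.3% of those genes. The median log2 ratio of the 9 was 0.37, with 7 above 0 and 2 below, and the median over all those genes was -0.01.

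The 4 higher genes were Mbd1, Tet2, Tet3 and Dnmt3a. Mbd1 had a log2 ratio of 1.17 (95% counting interval 1.06 to 1.29). Tet2 had 0.85 (0.77 to 0.92) and Tet3 0.84 (0.77 to 0.91). Dnmt3a had 0.59 (0.50 to 0.68), just past the 1.5-fold line, and with library totals alone its log2 ratio was 0.50, below it. Mbd3 was the gene below the lower line, at -0.59 (-0.74 to -0.44).

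The other 4 genes differed less. Mbd2 had a log2 ratio of 0.37 (0.29 to 0.45), Dnmt1 of 0.24 (0.11 to 0.38) and Tet1 of -0.18 (-0.31 to -0.05). For Dnmt3b the interval from -0.28 to 0.95 spans 0, so a difference was not detectable at this depth. The erasers thus did not move together, with Tet2 and Tet3 higher in replicate 2 and Tet1 at a ratio slightly below 0 under each of the scalings tried.

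**Figure D4:**
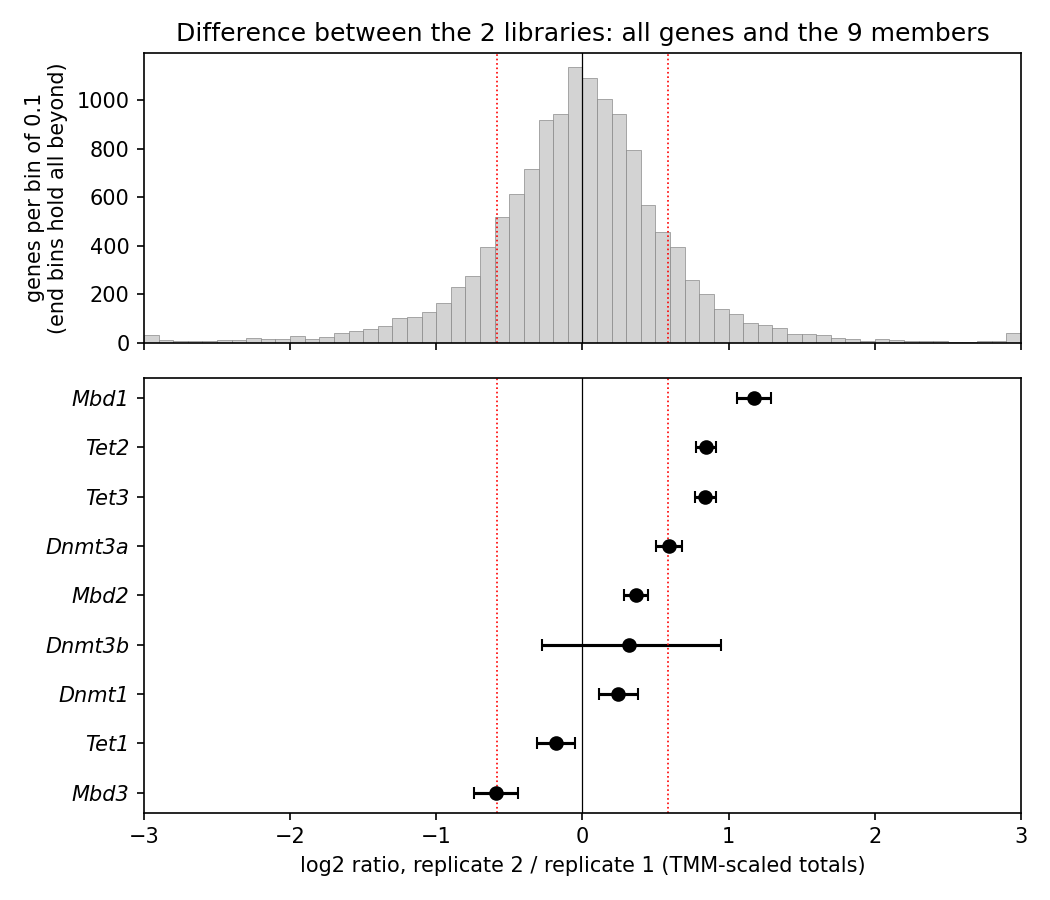
Log2 ratio of replicate 2 to replicate 1 for all genes averaging 1 CPM or more (histogram, end bins holding all values beyond) and for the 9 genes with their 95% counting intervals, with dotted lines at 1.5-fold. Mbd1, at 1.17, is farthest to the right, Mbd3, at -0.59, is farthest to the left, and the wide interval is that of Dnmt3b.

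Other genes differed between the libraries as well. The activity genes Arc (33.2 and 264.6 CPM), Egr3 (304.1 and 2071 CPM), Bdnf (61.2 and 183.4 CPM) and Fos (1.92 and 3.03 CPM) were all higher in replicate 2. Their part in the differences of Mbd1, Tet2, Tet3 and Dnmt3a was not tested. Markers of oligodendrocyte precursors, 3 of 3 higher by at least 1.5-fold against 12.6% of all genes, summed to 7.51 CPM in replicate 1 and 18.1 in replicate 2, led by Pdgfra (2.75 and 8.99 CPM) in the second library. GABAergic markers summed to 73.8 and 121.4 CPM, led by Gad1 (50.0 and 75.6 CPM) and Gad2 (19.7 and 42.8 CPM), while Sst (3.16 and 2.17 CPM) and Slc32a1 (0.703 and 0.367 CPM) were lower in replicate 2. Astrocyte markers summed to 50.5 and 58.6 CPM, led by Slc1a3 (21.4 and 27.6 CPM), but were mixed. Gfap (7.09 and 11.98 CPM) was higher in replicate 2, as was Slc1a3. Aqp4 (16.8 and 14.3 CPM), Gja1 (4.31 and 3.88 CPM) and Aldh1l1 (0.958 and 0.887 CPM) were lower there. Lower in replicate 2 were the summed markers of oligodendrocytes (162.5 and 119.2 CPM, led by Mbp), CA pyramidal cells (126.2 and 97.4 CPM, led by Wfs1) and mossy cells (56.9 and 35.0 CPM, led by Ajap1), although the CA marker Amigo2 was higher there (4.92 and 7.15 CPM). Endothelial markers summed to 16.2 and 15.2 CPM and were mixed, with Flt1 (10.7 and 11.6 CPM) higher and Cdh5 (2.36 and 0.825 CPM) lower in replicate 2. What these contributed was not tested either.

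Genes of dividing cells are of interest beside Dnmt1, whose enzyme acts on replicating DNA. Mki67 was at 6.74 and 11.7 CPM, Top2a at 1.79 and 1.13, Mcm2 at 2.62 and 0.978, Mcm5 at 1.53 and 0.795, and Ccnb1 at 0.0958 and 0.122. Pcna, which also serves in DNA repair, was the highest of these markers at 32.5 and 43.5 CPM. Of the 6 markers, 3 were detected in both libraries, against 38.1% of all symbols. Progenitor and immature neuron markers summed to 13.6 and 12.1 CPM, led by Dcx (10.5 and 8.77 CPM), with Eomes and Igfbpl1 at 0 counts in both.

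Of 48 other genes of the methylation cycle, in 6 lists, 43 were detected, against 38.1% of all symbols. That share is also the background for the detected counts of the single lists below. The median of the 48 was 5.93 CPM per kilobase. In the comparison of the libraries 4 of these 43 stood 1.5-fold or more above replicate 1 and 3 as far below it, neither a larger share than the 12.6% and 14.3% over all genes.

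Partners of the writers were uneven. UHRF1, which brings DNMT1 to newly replicated DNA, was nearly missing as a message, with 16 and 13 counts for Uhrf1 or 0.511 and 0.397 CPM. Dnmt1 was at 30.6 times Uhrf1 per kilobase in replicate 1 and 43.7 times in replicate 2. The related Uhrf2 was at 47.6 and 65.2 CPM (6.57 ± 1.45 CPM per kilobase). Usp7, which encodes a deubiquitinase, led the list at 20.6 ± 3.99 CPM per kilobase, and Dmap1 was at 3.91 ± 0.918. Dnmt3l, the germline cofactor without catalytic activity, had 1 count in each library, and Hells, a remodelling helicase, 52 and 61. Of the 7 genes 5 were detected, and none of the 5 differed by 1.5-fold.

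All 6 further reader genes were detected. Mbd5, which carries an MBD domain but is not known to bind methylated CpG, was the highest at 16.7 ± 3.54 CPM per kilobase. The zinc finger genes Zbtb4 and Zbtb38 were at 13.2 ± 2.76 and 13.1 ± 2.92, and Zbtb33, which encodes Kaiso, at 9.58 ± 0.0163. Mbd6 (3.75 ± 1.31) and the glycosylase gene Mbd4 (3.58 ± 1.06) were the lowest with Zbtb33. Of the exon bases of Zbtb33, 9.25% are shared with Tmem255a on the opposite strand, which had 862 and 653 counts. Mbd6 was the gene of this list past 1.5-fold, with a log2 ratio of -0.63. Against all genes, where 14.3% were that much lower, 1 of 6 is close to the background.

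Among the CXXC proteins and TET partners, Cxxc5 (23.3 ± 3.73 CPM per kilobase) and Ogt (20.0 ± 1.59) were well above all 3 Tet genes. Ogt is the gene of the O-GlcNAc transferase that binds TET proteins. Cxxc4 (0.813 ± 0.0984) was below all 3 Tet genes, and Kdm2b (1.69 ± 0.238) overlapped Tet1 in range. Kdm2b shares 5.77% of its exon bases with Rnf34 and 1.83% with an antisense gene, both on the opposite strand. None of the 4 differed by 1.5-fold between the libraries.

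Genes of base excision and repair were low, with a median of 1.70 CPM per kilobase and 7 of 10 detected. Gadd45g (12.8 ± 0.755 CPM per kilobase) and Gadd45b (5.50 ± 3.94) led the list, ahead of Smug1 (4.10 ± 0.793). Gadd45b, known as an activity-induced gene linked to demethylation in dentate neurons, was at 4.31 and 13.2 CPM (log2 ratio 1.69). Tdg, the glycosylase that removes oxidised methylcytosine, was at 9.01 and 14.2 CPM (log2 ratio 0.74), and some of its exon bases, 6.83%, are shared with Glt8d2 on the opposite strand. Neil1 was at 1.69 and 1.01 CPM (-0.62). Of the 7 detected genes, 2 were thus 1.5-fold or more higher in replicate 2 and 1 as far lower. Over all genes these shares were 12.6% and 14.3%. Neil2 had 17 and 14 counts, Apex1 9 and 24, and Neil3 had 0 in both, where 3 counts would be 0.0958 and 0.0917 CPM.

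All 6 genes listed under the methyl donor cycle were detected, with a median of 23.2 CPM per kilobase. That median includes Ahcyl1 and Ahcyl2, listed as relatives of a cycle enzyme, whose part in the cycle was not examined here. Ahcyl1 (64.5 ± 12.1 CPM per kilobase) and Ahcyl2 (36.0 ± 0.477), relatives of the hydrolase of S-adenosylhomocysteine, led it with Mat2a (33.2 ± 11.1), which encodes the S-adenosylmethionine synthetase of the brain. Mat2a was at 113.7 and 183.9 CPM (log2 ratio 0.79) and was the gene of these 6 past 1.5-fold. Over all genes 12.6% were that much higher, so 1 of 6 is close to the background. Mat2b, which encodes the regulatory subunit of that synthetase, was at 13.3 ± 0.708 CPM per kilobase, Ahcy itself at 1.44 ± 0.0973 and the methionine synthase gene Mtr at 0.571 ± 0.0669.

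All 15 genes of NuRD and of the SETDB1 complex were detected, with a median of 17.1 CPM per kilobase. The histone chaperone gene Rbbp7 (76.0 ± 38.0), the remodelling ATPase gene Chd3 (68.7 ± 5.86) and Hdac2 (43.4 ± 5.65) were the highest. Rbbp7 was at 143.1 and 299.3 CPM (log2 ratio 1.16). A stretch of its exons, 5.98%, overlaps Txlng on the opposite strand, which had 2119 and 4350 counts. Mta3 went the other way, at 153.5 and 93.9 CPM (-0.62). Of the 15 genes, 1 was thus 1.5-fold or more higher and 1 as far lower, against 12.6% and 14.3% of all genes. Gatad2a (4.36 ± 0.107), the MBD1 partner gene Setdb1 (3.67 ± 0.692) and Cdk2ap1 (3.42 ± 0.318) were the lowest.

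**Figure D5:**
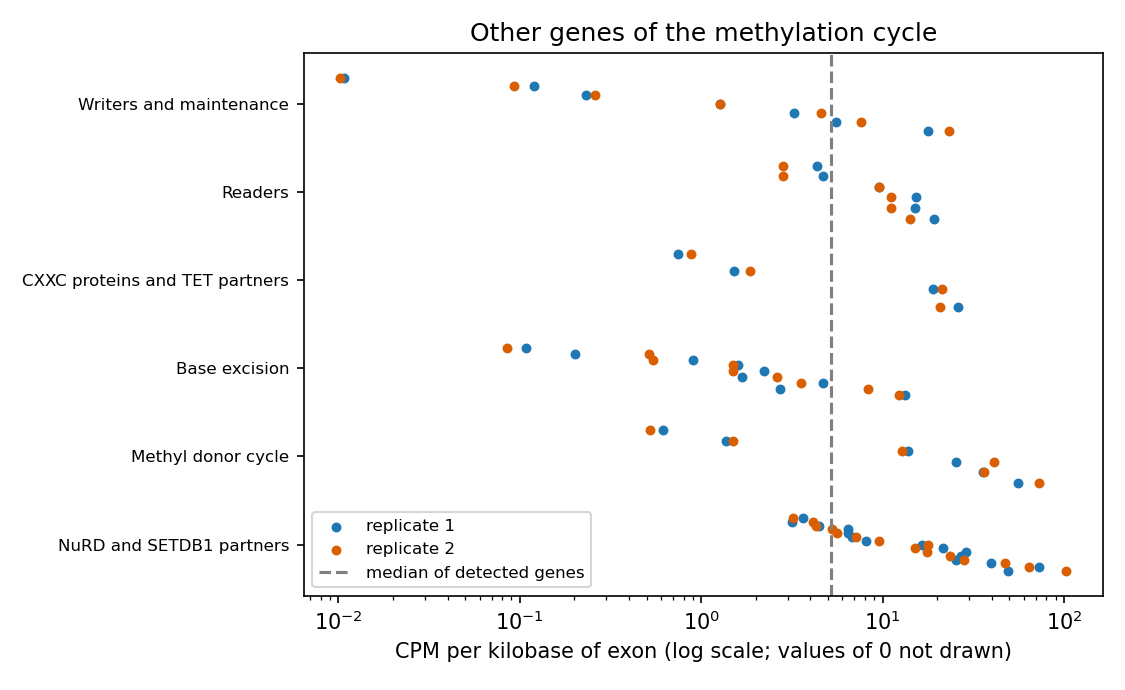
CPM per kilobase of exon (log axis, values of 0 left out) of the 48 other genes in 6 lists, with a point for each gene and library and a dashed line at the median of detected genes, 5.19. Genes of the NuRD and methyl donor lists reach the highest levels, the latter through Ahcyl1, and Dnmt3l, Neil2 and Uhrf1 the lowest that are drawn.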

How the data were processed

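The deposited values are raw counts per gene symbol, 1 file per library. STAR 2.0.0e, HTSeq and the build mm10 are named, per the submitters' processing notes. For the annotation and the strandedness of counting, the setting is not given in the sources used here, so antisense reads may be included in a count. Annotated exons of the 9 genes overlap other genes by under 1% of their length.

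HTSeq's summary lines and the line unknown (35.0% and 35.1% of all counts) were left out. CPM is the count per 1000000 counts on gene lines. Lengths and coordinates come from GENCODE M21 (GRCm38), where 23155 of 32531 symbols matched, and promoter sequences come from RefSeq. TMM factors were computed with edgeR 4.0.16 and size factors with DESeq2 1.42.0. The remaining steps used Python 3.11.15 with scipy 1.17.1. The ratio and its exact (Clopper-Pearson) interval were tested on simulated data that held counting noise only. That test therefore says nothing of the spread between libraries. Intervals and the limit for 0 counts (3 counts) reflect counting error alone, because reads without molecular identifiers are not independent molecules. With 1 group of 2 libraries no differential test was made.

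The genes and lists were chosen with earlier results of these data known. All 9 genes are named, and of each other list the 3 highest and 3 lowest per kilobase and those past 1.5-fold. Of the marker lists, the highest gene, genes at 0 counts and all dividing-cell markers are named. Dsp, Calb1, Gad2, Sst, Slc32a1, Amigo2 and Cdh5 were added after their values were seen. So were Rbfox3, Syt1, Map2, Gfap, Aqp4, Gja1 and Aldh1l1. Further genes of the lists are not reported here. Alternatives changed the length, the library total, the detection threshold, the scaling, the prior count and the filter, and left out each library.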

Additional observations from a re-analysis of the deposited data

Results flagged for a closer look

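Counts that no comparison used were present in both libraries. Reads that overlapped several genes, which HTSeq assigns to none, made up 2.61% of all counts in replicate 1 and 2.56% in replicate 2. With 2 libraries no check for an outlying sample was made.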

How the results depend on the processing

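Length was the choice that moved values most. The median level of the 9 genes was 6.31 CPM per kilobase of exon, 9.79 with the longest transcript and 19.7 with the longest coding sequence, and 4.05 to 7.99 when either library was left out. The share of Dnmt3a among the writers was 48.6%, against 56.4% with the longest transcript, 78.8% with the coding sequence and 68.5% with no length, and the share of Mbd2 was 58.0%, against 62.4% with the longest transcript. The number of genes past 1.5-fold was 5, or 4 with library totals alone, where Dnmt3a fell below the line; with DESeq2 size factors, which put Mbd3 at -0.59, and with prior counts of 0.5 and 5 it was 5. Over all genes the share past 1.5-fold in either direction was 26.9% at a mean CPM of at least 1, 16.6% at a mean CPM of at least 10 and 41.5% with any count, so it rests on the filter. Detection held for 9 genes at 0.5 CPM and 8 at 2 or 5 CPM, where Dnmt3b dropped out. No ratio of the 9 genes changed sign under these settings. No paired analysis was possible because there is 1 group. Depth limits Dnmt3b, Uhrf1, Neil2 and Apex1.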
